A study of Mus musculus with 4 samples.

Results

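Genes that mark tissue-resident macrophages were followed across the colon libraries of germ-free mice: Siglec1, Cd163, Mrc1, Csf1r, Cx3cr1, C1qa, C1qb, C1qc, Cd68 and Timd4. They were taken by gene symbol, and all 10 of 10 were found among the 24016 genes of the table. The list was chosen by symbol with the ratios between these same libraries already known, among them that of Siglec1 in LGG against E. coli, so that all values are given as a description and not as a test. Of these, 9 (all but Timd4) reached a mean of at least 1 CPM (read counts relative to scaled library size) over the 4 libraries, as did 14450 genes in all.

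Colon tissue came from germ-free C57BL/6 mice aged 7 weeks, which have no microbiota of their own. One library each was sequenced for mice given Lactobacillus rhamnosus GG by gavage (LGG, a strain used as a probiotic), mice gavaged with Escherichia coli (E. coli), mice gavaged with phosphate-buffered saline (PBS), and untreated mice; colon pieces measured 4 cm and were excised 4 h after the gavage. In the labels there are 4 mice for each gavaged group and no number for the untreated group, and nothing on pooling of RNA or on the end of the colon a piece came from. They give the same dose for both bacteria, without a unit. With 1 library per condition no difference has a replicate check, so each comparison is between libraries and no p-value is given.

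Macrophages of the gut wall are replenished largely from blood monocytes and take up dying cells and microbes beneath the epithelium. Csf1r is the receptor for the growth factors Csf1 and Il34, on which these cells depend, and the chemokine receptor Cx3cr1 marks them in the intestine. C1qa, C1qb and C1qc encode the 3 chains of C1q, which starts the classical complement pathway and which macrophages secrete. Cd163 takes up haemoglobin bound to haptoglobin, Mrc1 is the mannose receptor, Siglec1 is a lectin that binds sialic acid, Timd4 binds phosphatidylserine on dying cells, and Cd68 is a glycoprotein of late endosomes and lysosomes. In whole tissue, fewer cells of a type and less RNA per cell cannot be told apart.

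The 3 C1q genes stand side by side on mouse chromosome 4, and the start regions of 2 of them are shown with those of Cx3cr1, Cd163 and Cd68, because the C1q genes kept nearly the same level in every library while Cx3cr1 and Cd163 were lowest in the LGG and highest in the untreated library and Cd68 was lowest in the untreated one. In the table's mm9 coordinates C1qb (NM_009777) lies at chr4:136436061-136442092, C1qc (NM_007574) at chr4:136445717-136448829 and C1qa (NM_007572) at chr4:136451831-136454759, all on the minus strand. They span 18699 bases with gaps of 3624 and 3001 bases, and 0 other genes of the table lie within. The sequences are from RefSeq on build GRCm38.p6, for which 7 of the 10 genes were matched. Windows of 250 bases before the start listed there were taken. A window was cut short where GENCODE places an earlier transcript start inside it. For C1qc this left the first 99 bases, the end farthest from the listed start. Each is printed 5′ to 3′ on the gene's strand and ends before the annotated start: C1qb is chr4:136886201-136886450, C1qc is chr4:136893066-136893164, Cx3cr1 is chr9:120068297-120068546 and Cd68 is chr11:69666171-69666420 on the minus strand, and Cd163 is chr6:124304401-124304650 on the plus strand. Capitals mark every match, on either strand, to 4 short motifs of factors known in macrophages: GAGGAA (the PU.1 core), TGCTGA (the MAF core), TGTGGT (the RUNX core) and TGANTCA (the AP-1 site).
C1qb: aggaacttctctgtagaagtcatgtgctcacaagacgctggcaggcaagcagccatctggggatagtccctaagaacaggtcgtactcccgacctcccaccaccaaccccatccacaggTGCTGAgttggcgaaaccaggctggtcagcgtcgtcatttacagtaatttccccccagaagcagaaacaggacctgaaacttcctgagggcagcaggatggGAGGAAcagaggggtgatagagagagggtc
C1qc: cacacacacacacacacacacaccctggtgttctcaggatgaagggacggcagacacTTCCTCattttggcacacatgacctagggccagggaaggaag
Cx3cr1: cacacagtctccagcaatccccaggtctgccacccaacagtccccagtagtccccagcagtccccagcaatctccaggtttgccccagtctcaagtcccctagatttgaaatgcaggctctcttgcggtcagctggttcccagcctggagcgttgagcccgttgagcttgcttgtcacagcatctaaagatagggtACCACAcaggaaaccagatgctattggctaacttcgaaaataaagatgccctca
Cd163: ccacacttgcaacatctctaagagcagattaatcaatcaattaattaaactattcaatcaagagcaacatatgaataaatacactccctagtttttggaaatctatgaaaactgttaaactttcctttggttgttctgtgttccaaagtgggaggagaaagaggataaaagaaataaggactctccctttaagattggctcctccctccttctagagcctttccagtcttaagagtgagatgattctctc
Cd68: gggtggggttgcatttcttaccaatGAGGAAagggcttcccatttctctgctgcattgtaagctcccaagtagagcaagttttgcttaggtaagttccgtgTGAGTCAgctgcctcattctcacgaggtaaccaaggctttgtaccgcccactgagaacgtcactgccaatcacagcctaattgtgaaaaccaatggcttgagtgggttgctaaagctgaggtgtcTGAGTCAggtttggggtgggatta
The C1qb window held 1 GAGGAA and 1 TGCTGA, and the C1qc window held 1 GAGGAA on the opposite strand. The Cx3cr1 window held 1 TGTGGT, read on the opposite strand. The Cd68 window held 1 GAGGAA and 2 TGANTCA, and the Cd163 window held 0 matches to these letters. Of 32851 promoter windows of 250 bases, 23.3% held GAGGAA, 16.1% TGCTGA, 14.0% TGTGGT and 6.75% TGANTCA. In the first 99 bases of these windows, the stretch shown for C1qc, the shares were 9.91%, 6.43%, 5.91% and 2.44%. Such matches describe the letters and not binding.

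The libraries held 29899371 (LGG), 29368008 (E. coli), 16289580.0 (PBS) and 27220697 (untreated) counts, so that a gene without counts could still lie at up to 0.103, 0.103, 0.187 and 0.105 CPM. Genes of the colon epithelium were present in every library, at levels that differed. Muc2, the goblet cell mucin, had 9720, 8174, 8281 and 10510 CPM in the LGG, E. coli, PBS and untreated libraries. Slc26a3 had 1543, 1673, 1575 and 859.5 CPM and Aqp8 267.2, 320.9, 259.5 and 156.4 CPM, both lowest in the untreated library (chosen after their values were seen). Other macrophage genes were present throughout, among them Mertk at 41.0, 44.1, 42.3 and 42.5 CPM, Lyz2 at 87.6, 91.7, 92.5 and 70.5 CPM, and Fcgr1 at 1.71, 1.55, 1.62 and 1.61 CPM (genes chosen after their values were seen). Neutrophil markers were near 0, with 11 genes summing to 2.46, 2.58, 2.56 and 2.52 CPM. The libraries differed in genes of fat and pancreas: 12 adipocyte genes summed to 316.6, 195.8, 256.7 and 336.6 CPM, and 12 pancreatic acinar genes to 49.9, 89.1, 24.1 and 3.82 CPM. They also differed in genes of colon position: 8 Hox genes of the proximal colon summed to 87.7, 60.3, 73.5 and 140.6 CPM, and 8 of the distal colon to 301.7, 427.0, 357.1 and 228.8 CPM. The part of tissue sampling in the results below was not tested.

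Per kilobase of listed transcript, the C1q genes stood far above the others. C1qa averaged 31.9 CPM per kb over the 4 libraries and ranged from 30.6 to 33.9, with no overlap with any other gene here. C1qb (23.0 to 26.0) and C1qc (21.5 to 25.1) overlapped. Csf1r came next at 6.44 to 8.28 and overlapped with Cd68 at 4.69 to 6.64, whereas Mrc1 lay apart at 2.46 to 2.96. Cx3cr1 (1.52 to 2.36) overlapped with Cd163 (0.993 to 1.60), and Timd4 (0.340 to 0.518) with Siglec1 (0.167 to 0.368), the lowest of the 10.

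**Figure D1:**
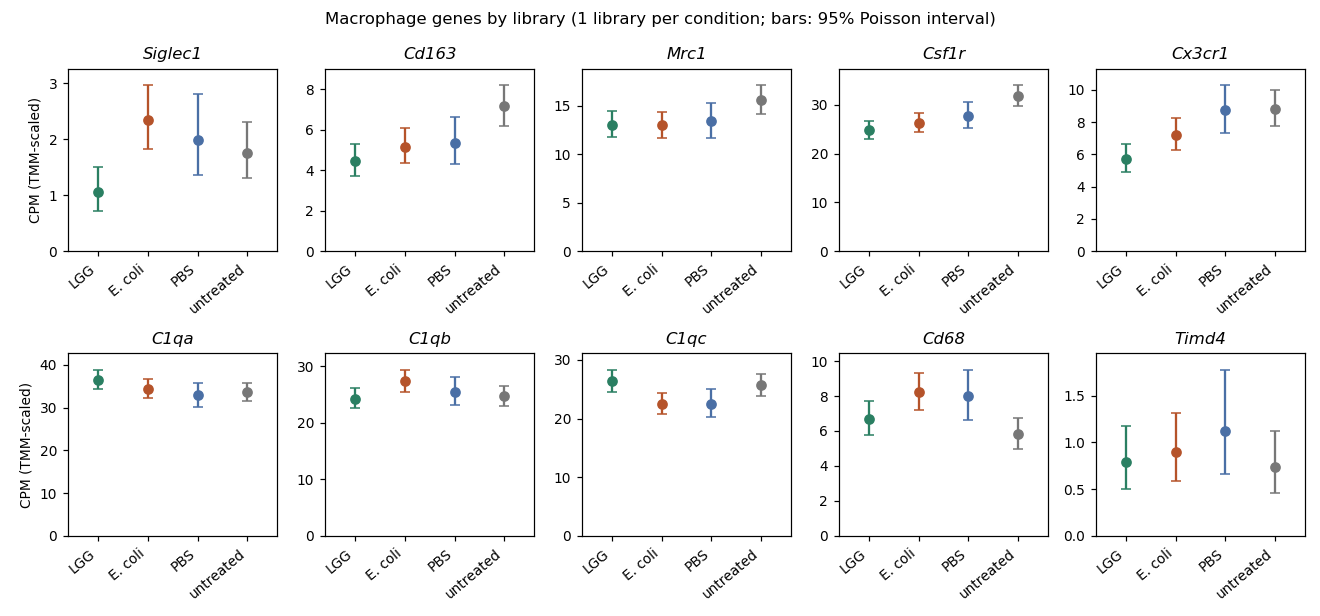
Level of each macrophage gene in the LGG, E. coli, PBS and untreated colon libraries (vertical axis, CPM scaled by TMM factors; 1 library per condition, bars are 95% Poisson intervals). Siglec1 was lowest in the LGG library at 1.06 CPM, whereas C1qa varied by a factor of 1.11 between its lowest and highest library.

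Siglec1 (NM_011426, chr2:130894956-130912501) was the one gene here to pass a size rule of at least 2-fold, with a 95% counting interval that excluded 0. It had 31 counts in the LGG library, 68 in the E. coli library, 32 in the PBS library and 50 in the untreated library. These correspond to 1.06 CPM (95% Poisson interval 0.720 to 1.504), 2.34 (1.82 to 2.97), 1.99 (1.36 to 2.82) and 1.75 (1.30 to 2.31). The LGG library was thus the lowest of the 4 and the E. coli library the highest, and the LGG and E. coli intervals did not overlap. The level in the LGG library was 0.457 of that in the E. coli library, a log2 ratio of -1.13 (95% counting interval -1.81 to -0.51). In that comparison 0.36% of all genes passed the rule and 0.0969% passed it downwards; since Siglec1 was proposed with this value known, nothing is read from the count of 1. Its ratio was at rank 8 from the lowest among the 14450 genes. All 7 measured distal Hox genes were also negative in LGG against E. coli, with a median of -0.70. Hoxd13 (chosen after its values were seen) had 15.5, 39.1, 24.9 and 21.2 CPM in the LGG, E. coli, PBS and untreated libraries. It was lowest and highest in the same libraries as Siglec1, as were Hoxd11 and Hoxd12. By contrast, Hoxa11, Hoxa13 and Hoxb13 were lowest in the untreated library, and Hoxd10 was highest there. In LGG against untreated the distal genes had 3 positive and 4 negative. The part of colon position in the Siglec1 values was not tested. Against PBS the log2 ratio of Siglec1 in the LGG library was -0.90 (-1.67 to -0.15), just short of the 2-fold limit, and against untreated it was -0.72 (-1.42 to -0.05). The E. coli library did not stand apart from either bacteria-free library, at 0.23 (-0.39 to 0.89) against PBS and 0.41 (-0.13 to 0.98) against untreated.

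These intervals cover counting error only, and they are wide because the counts are low. The interval of -1.81 to -0.51 for LGG against E. coli runs from well past the 2-fold limit to well short of it. At a filter of 5 CPM in place of 1, Siglec1, with its mean of 1.79 CPM, was not counted at all. The genes whose pattern over the 4 libraries was nearest to that of Siglec1, by Euclidean distance between centred log2 CPM among 13228 candidates, were Rgn (distance 0.111), Vtcn1 (0.180), Mettl7a3 (0.213), Cldn1 (0.221) and Trpm2 (0.230). All 5 were scarce as well: Rgn had 0.752, 1.62, 1.37 and 1.12 CPM in the LGG, E. coli, PBS and untreated libraries, and Cldn1, a claudin of tight junctions, had 1.504, 3.10, 2.31 and 2.14 CPM. Of 12 measured lectin genes, Siglec1 included and not all of them binders of sialic acid or mannose, 1 was past the rule in LGG against E. coli. There 7 had a negative ratio, 4 had an interval below 0, and the median was -0.03. The other measured sialic acid lectins of the Siglec1 family were all negative. Cd33 was at -0.87 (-1.52 to -0.27), Siglecg at -0.50 (-0.94 to -0.07) and Cd22 at -0.45 (-0.74 to -0.16). Siglece was at -0.05 and Siglec5 at -0.01, with intervals that included 0. Cd22, the B cell lectin for sialic acid, had 5.95, 8.13, 6.48 and 4.06 CPM, and Mrc2, a relative of Mrc1, had 19.4, 17.7, 19.3 and 20.7 CPM (both chosen after their values were seen).

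Cx3cr1 (NM_009987, chr9:119957801-119977414) was also lowest in the LGG library. It had 5.71 CPM there (Poisson interval 4.87 to 6.64), against 7.20 (6.25 to 8.24) in the E. coli library, 8.72 (7.34 to 10.3) in the PBS library and 8.83 (7.77 to 9.99) in the untreated library. PBS and untreated were alike within counting error, the E. coli library lay between, and the LGG interval met neither of the bacteria-free ones. The log2 ratio in the LGG library was -0.61 (-0.95 to -0.28) against PBS, -0.63 (-0.92 to -0.34) against untreated and -0.33 (-0.64 to -0.03) against E. coli. For E. coli it was -0.28 (-0.59 to 0.04) against PBS and -0.29 (-0.57 to -0.02) against untreated. None of these reached 2-fold; at a limit of 1.5-fold, Siglec1 and Cx3cr1 were the 2 genes of the 9 past the rule in LGG against PBS, where 1.57% of all genes were and 0.789% were on the lower side. Cx3cl1, the ligand of this receptor and mainly epithelial in the gut, had 101.8, 120.1, 106.1 and 103.1 CPM in the LGG, E. coli, PBS and untreated libraries, with a log2 ratio of -0.24 (-0.31 to -0.17) for LGG against E. coli.

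Csf1r (NM_001037859) and the endocytic receptors Cd163 and Mrc1 were, like Cx3cr1, highest in the untreated library. In PBS against untreated the log2 ratio was -0.20 for Csf1r, -0.41 for Cd163 and -0.22 for Mrc1, and -0.02 (-0.33 to 0.29) for Cx3cr1. Csf1r had 24.8 CPM in the LGG library (23.0 to 26.7), 26.3 in the E. coli library (24.5 to 28.3), 27.8 in the PBS library (25.3 to 30.5) and 31.9 in the untreated library (29.8 to 34.0). All 3 gavaged libraries were below the untreated one, at -0.36 (-0.50 to -0.22) for LGG, -0.28 (-0.42 to -0.14) for E. coli and -0.20 (-0.36 to -0.03) for PBS. Between the gavaged libraries the intervals of Csf1r included 0.

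Cd163 (NM_001170395, chr6:124254669-124280545) followed the same order, with 4.44 CPM in the LGG library (3.71 to 5.28), 5.16 in the E. coli library (4.37 to 6.06), 5.36 in the PBS library (4.29 to 6.62) and 7.15 in the untreated library (6.20 to 8.20). Its log2 ratios against untreated were -0.68 (-1.01 to -0.36) for LGG, -0.47 (-0.78 to -0.16) for E. coli and -0.41 (-0.80 to -0.05) for PBS. Mrc1 (NM_008625, chr2:14151041-14253650) had 13.05 CPM in the LGG library, 12.98 in the E. coli library, 13.4 in the PBS library and 15.6 in the untreated library, a narrower range. Against untreated it was at -0.26 (-0.46 to -0.06) for LGG and -0.27 (-0.47 to -0.07) for E. coli, and at -0.22 (-0.46 to 0.02) for PBS. The listed extents of Mrc1 and Csf1r also hold a microRNA gene each (Mir511 and Mir6983), on the same strand. Lymphatic and sinusoidal endothelium also carries Mrc1, and endothelial markers were also highest in the untreated library: 10 lymphatic genes summed to 163.2, 169.4, 174.2 and 193.0 CPM in the LGG, E. coli, PBS and untreated libraries, and 11 genes of blood endothelium to 230.3, 265.4, 253.5 and 287.3 CPM. The part of these cells in the Mrc1 values was not tested.

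Cd68 (NM_001291058, chr11:69477715-69479672) went the other way, lowest in the untreated library. It had 6.70 CPM in the LGG library (5.79 to 7.70), 8.23 in the E. coli library (7.22 to 9.34), 7.98 in the PBS library (6.65 to 9.48) and 5.82 in the untreated library (4.97 to 6.77). The E. coli and untreated intervals did not overlap. The log2 ratio against untreated was 0.50 (0.21 to 0.80) for E. coli and 0.45 (0.11 to 0.80) for PBS, and 0.20 (-0.10 to 0.51) for LGG, while LGG against E. coli gave -0.30 (-0.58 to -0.02). Among 37 other measured macrophage genes, 13 were lowest and 11 were highest in the untreated library. Cd14, the co-receptor for bacterial lipopolysaccharide, had 29.8, 29.1, 26.7 and 21.4 CPM in the LGG, E. coli, PBS and untreated libraries, whereas the transcription factor Maf had 23.9, 21.4, 19.9 and 33.0 CPM and Apoe, the apolipoprotein, 260.3, 241.3, 242.7 and 305.4 CPM (chosen after their values were seen). Timd4 (NM_178759, chr11:46624301-46657835) had 23, 26, 18 and 21 counts in these libraries, or 0.786, 0.895, 1.12 and 0.736 CPM. Its counting interval included 0 in all 6 comparisons, and differences of less than about 2-fold were not detectable at this depth.

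The C1q genes had the smallest ratios of highest to lowest library, 1.11 for C1qa, 1.13 for C1qb and 1.17 for C1qc. C1qa had 36.5 CPM in the LGG library (34.3 to 38.8), 34.4 in the E. coli library (32.3 to 36.6), 32.9 in the PBS library (30.2 to 35.8) and 33.6 in the untreated library (31.5 to 35.8), and its interval included 0 in all 6 comparisons. C1qb had 24.3, 27.4, 25.6 and 24.7 CPM in the LGG, E. coli, PBS and untreated libraries, and C1qc had 26.4, 22.5, 22.6 and 25.7 CPM. The interval of C1qb excluded 0 in 1 of the 6 comparisons and that of C1qc in 4. Summed, the 3 genes had 87.2 CPM (83.8 to 90.6) in the LGG library, 84.3 (81.0 to 87.8) in the E. coli library, 81.0 (76.7 to 85.5) in the PBS library and 84.0 (80.7 to 87.4) in the untreated library. Of the 6 comparisons of this sum, LGG against PBS alone had an interval that excluded 0, at 0.11 (0.01 to 0.20). The genes nearest to the sum in pattern were Kdelc1 (distance 0.0079), Pdf (0.0082), Ppp2r5c (0.0103), Aamp (0.0104) and Shisa5 (0.012), all of them nearly level across the libraries.

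Within the trio, the balance of C1qb and C1qc differed between libraries. C1qc counts were 108.3% of C1qb counts in the LGG library, 82.2% in the E. coli library, 88.3% in the PBS library and 104.0% in the untreated library. This ratio is taken within a library, so no scaling between libraries enters it. It was higher in the LGG than in the E. coli library by 0.40 on the log2 scale (0.19 to 0.61), higher in the LGG than in the PBS library by 0.29 (0.04 to 0.55), and lower in the E. coli than in the untreated library, at -0.34 (-0.55 to -0.12). Singly, C1qc was at 0.23 (0.07 to 0.38) and C1qb at -0.17 (-0.32 to -0.02) in LGG against E. coli. C1qa held between 39.4% and 41.3% of the length-scaled C1q level in every library.

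**Figure D2:**
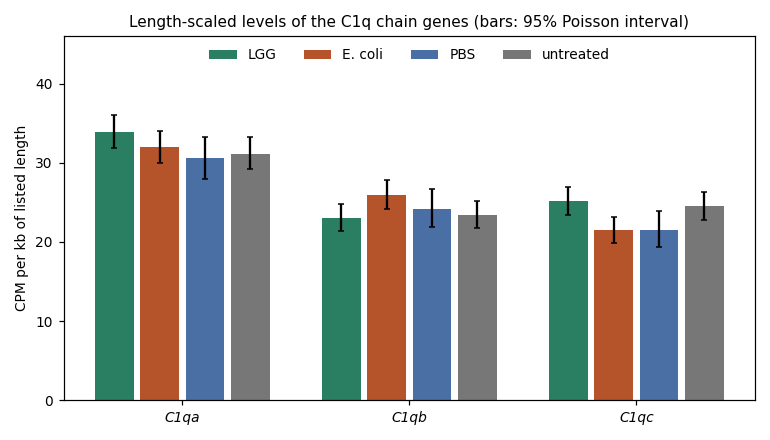
Length-scaled level (CPM per kb of listed transcript) of C1qa, C1qb and C1qc in the LGG, E. coli, PBS and untreated libraries, with 95% Poisson intervals as bars. C1qb was above C1qc in the E. coli (26.0 and 21.5) and PBS libraries and below it in the LGG (23.0 and 25.1) and untreated libraries.

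Summed C1q served as an internal measure for the other genes, again free of the scaling between libraries. Relative to summed C1q counts, Siglec1 in the LGG library was at -1.19 (-1.86 to -0.55) against E. coli, -1.02 (-1.79 to -0.25) against PBS and -0.78 (-1.48 to -0.10) against untreated. The summed C1q level was itself highest in the LGG library, and relative to the sum of the other 9 genes Siglec1 was at -1.12 (-1.78 to -0.48) against E. coli, -0.89 (-1.65 to -0.12) against PBS and -0.61 (-1.31 to 0.06) against untreated, the last including 0. Relative to C1q, Cx3cr1 was at -0.72 (-1.07 to -0.37) in LGG against PBS and -0.34 (-0.67 to -0.0013) in E. coli against PBS; relative to the other 9 genes these were -0.61 (-0.95 to -0.26) and -0.29 (-0.62 to 0.03). Cd163 was at -0.74 (-1.08 to -0.40) and Csf1r at -0.42 (-0.58 to -0.25) in LGG against untreated. Cd68 was at 0.49 (0.19 to 0.80) in E. coli against untreated. The C1q genes made up 60.7% of the counts of the 10 genes in the LGG library, 57.2% in the E. coli library, 55.0% in the PBS library and 53.9% in the untreated library. All 10 genes summed to 143.7, 147.5, 147.4 and 155.8 CPM in the LGG, E. coli, PBS and untreated libraries. The sum was lower than in the untreated library in all 3 gavaged ones, at -0.12 (-0.18 to -0.06) for LGG, -0.08 (-0.14 to -0.02) for E. coli and -0.08 (-0.15 to -0.0079) for PBS, and the intervals between gavaged libraries included 0.

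Across the 6 comparisons, which share libraries and so are not independent, the 9 genes did not share 1 direction. In LGG against E. coli their median log2 ratio was -0.17, with 3 positive and 6 negative, beside a median of -0.0002 over all genes; 5 had an interval that excluded 0, as did 32.6% of all genes. Of these, 1 was higher (16.4% of all genes) and 4 were lower (16.2%). In LGG against PBS the median was -0.16, with 0 past the 2-fold rule where 0.277% of all genes were, and 3 intervals excluded 0 where 27.4% of all did, 1 on the higher side (14.3% of all) and 2 on the lower (13.1%). In E. coli against PBS their median lay at -0.0028, 0 of the 9 were past the rule beside 0.415% of all genes, and 0 intervals excluded 0 beside 19% of all.

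Against untreated the shares were higher for all genes too. In LGG against untreated the median of the 9 was -0.26, 0 were past the 2-fold rule beside 1.04% of all genes, and 5 intervals, all on the lower side, excluded 0 beside 47.7% of all genes (23% lower). At 1.5-fold, Siglec1, Cd163 and Cx3cr1 were past the rule there, beside 5.26% of all genes, 3.62% on the lower side. In E. coli against untreated the median was -0.19, 0 were past the rule beside 2.35% of all, and 6 intervals excluded 0 beside 47.3%, 1 higher (24.9%) and 5 lower (22.4%). In PBS against untreated the median was -0.03, 0 were past the rule beside 1.45%, and 4 intervals excluded 0 beside 38.5%, 1 higher (20.3%) and 3 lower (18.3%). Scaled by library totals in place of TMM, the shares of all genes on the higher and lower side were 12.98% and 38.2% for LGG, 13.9% and 35.0% for E. coli and 10.7% and 31.7% for PBS against untreated, and the counts among the 9 genes were 0 and 5, 1 and 5, and 1 and 4.

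**Figure D3:**
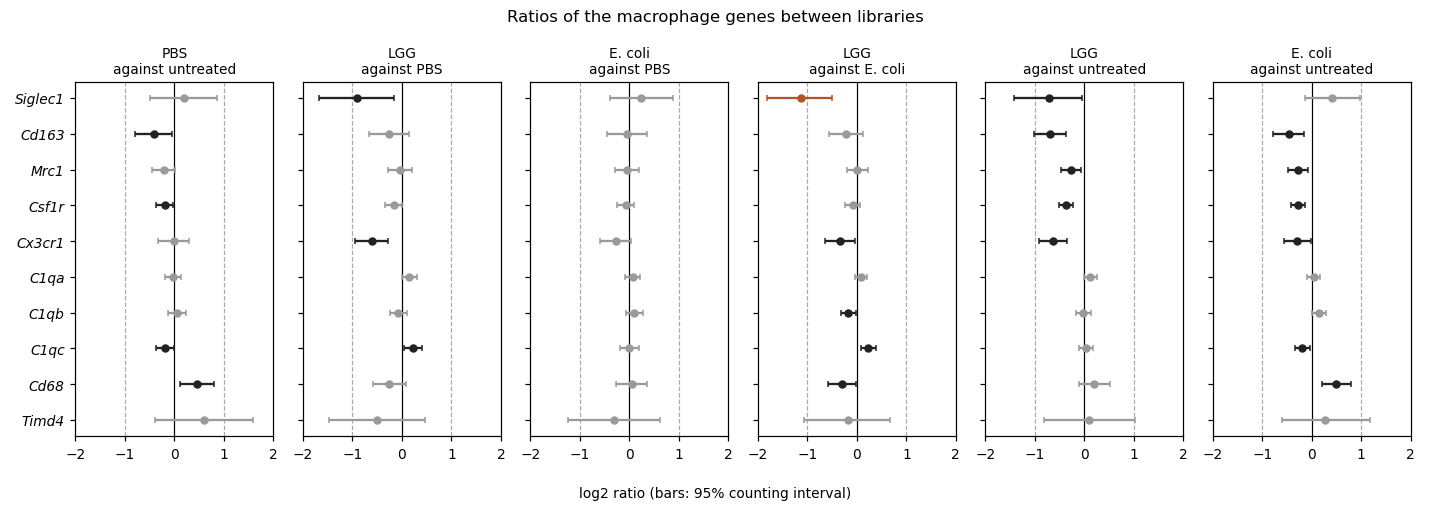
Log2 ratio of each macrophage gene in the 6 comparisons (horizontal axis; bars are 95% counting intervals; black where the interval excludes 0, grey where it includes 0, orange-brown where the 2-fold rule is also passed; dashed lines mark 2-fold). Siglec1 in LGG against E. coli, at -1.13, is the one orange-brown point, and no interval excludes 0 in E. coli against PBS.

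A wider list of macrophage genes did not follow the 10. Of 37 measured genes outside the 10, none was past the 2-fold rule in any comparison; in LGG against E. coli 18 were positive and 19 negative, with a median of -0.05. In LGG against PBS 22 were positive and 15 negative, and in E. coli against PBS 23 and 14. Against untreated, 13 of the 37 intervals excluded 0 on the higher and 6 on the lower side in LGG, beside 24.7% and 23% of all genes. In E. coli against untreated these were 13 and 5, beside 24.9% and 22.4% of all genes. The 9 genes had 0 and 5 in LGG, and 1 and 5 in E. coli. The list's most abundant genes, Cd63 and Gas6, are also made outside macrophages: Cd63, of late endosomes, had 518.1, 477.0, 463.9 and 489.1 CPM in the LGG, E. coli, PBS and untreated libraries, and Gas6, a ligand of the receptors Axl and Mertk, had 380.3, 436.7, 368.9 and 364.0 CPM. Vsig4, a complement receptor of some resident macrophages, was near 0, at 0.137, 0.138, 0.249 and 0 CPM.

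The growth factors of macrophages and their receptors, Csf1r and Cx3cr1 included, leaned down in LGG against E. coli, with 10 of 12 measured genes negative, a median of -0.23 and none past the rule. Csf1 had 24.6, 29.5, 27.3 and 22.9 CPM and Il34 13.4, 17.0, 14.2 and 8.69 CPM in the LGG, E. coli, PBS and untreated libraries (both chosen after their values were seen). Both ligands were thus lowest in the untreated library, where their receptor Csf1r was highest. For Csf1 the log2 ratio against untreated was 0.36 (0.21 to 0.51) in E. coli, and 0.10 (-0.05 to 0.26) in LGG, an interval that included 0. Il34 was at 0.97 (0.75 to 1.19) in E. coli against untreated and 0.62 (0.39 to 0.86) in LGG against untreated. Tgfbr2, a receptor for transforming growth factor beta made by many cell types, had 99.5, 116.0, 113.7 and 132.5 CPM, in the order of Csf1r except that E. coli lay above PBS.

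Some complement genes other than C1q were less even, and others were about as level. Cr1l had 68.0, 70.7, 71.3 and 66.1 CPM in the LGG, E. coli, PBS and untreated libraries, and C1s1 had 77.5, 85.1, 80.6 and 86.7 CPM (both chosen after their values were seen). Of 22 measured genes, C1q included, C3 and Cfd were those past the rule in any comparison. C3, the central component, had 91.9, 84.1, 147.4 and 187.6 CPM in the LGG, E. coli, PBS and untreated libraries, and was at -1.03 (-1.10 to -0.96) in LGG and -1.16 (-1.23 to -1.09) in E. coli against untreated. Cfd, complement factor D and a product of adipocytes, had 44.8, 17.97, 36.6 and 56.7 CPM, lowest in the E. coli library, and was at 1.32 (1.17 to 1.47) in LGG against E. coli, -1.03 (-1.20 to -0.86) in E. coli against PBS, -1.66 (-1.80 to -1.51) in E. coli against untreated and -0.34 (-0.45 to -0.23) in LGG against untreated. C1ra and C1s1, the proteases that act with C1q and that stromal cells make, were at -0.34 (-0.48 to -0.21) and -0.13 (-0.22 to -0.05) in LGG against E. coli (chosen after their values were seen). Of 18 measured genes of apoptotic cell uptake, 0 were past the rule in LGG against E. coli and in LGG against untreated, with medians of -0.09 and -0.09; the fatty acid and scavenger receptor Cd36 was at -1.16 (-1.33 to -0.99) in E. coli against untreated.

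Markers of other cells moved with some of these values. In LGG against E. coli, all 12 leukocyte-wide genes were negative with a median of -0.20, near that of the 9 macrophage genes; they summed to 162.0 CPM in the LGG library, 188.0 in the E. coli library, 173.0 in the PBS library and 151.3 in the untreated library. B cell and follicle genes had 12 of 14 negative and a median of -0.22 there, and blood endothelial genes 11 of 11 negative and a median of -0.18. T cell genes had 5 of 6 negative and a median of -0.20. Against untreated the lists did not go one way: the leukocyte-wide median was 0.14 in LGG and 0.30 in E. coli, and all 14 B cell genes were positive in both, with medians of 0.64 and 0.85, while the T cell genes had a median of -0.14 in LGG (5 of 6 negative) and 0.06 in E. coli. Of 8 measured monocyte markers none was past the rule, with medians of -0.06 in LGG against E. coli, -0.12 in LGG against untreated and -0.07 in E. coli against untreated. These medians leave out Ly6c2, Chil3, Treml4 and Cd300e, whose means were below the filter. Adipocyte genes ran against the macrophage genes in LGG against E. coli, with a median of 1.00 and 6 of 12 past the rule, and mesothelial genes had medians of -0.74 in LGG against untreated and -1.19 in E. coli against untreated. Measured peritoneal macrophage markers had 7 of 10 negative in both, with medians of -0.32 in LGG and -0.49 in E. coli against untreated. Timd4, also on that list, had a mean below the filter and is not counted there. Its log2 ratios against untreated were 0.09 in LGG and 0.28 in E. coli, with intervals that included 0. For the E. coli library against untreated, the lipoxygenase Alox15 (-1.22) and the acute-phase protein Saa3 (-1.09) passed the size rule. There, 5 of the 10 measured genes of that list had an interval below 0 and 3 had one above 0. Gata6, Cxcl13 and Fn1 were higher, at 56.4, 7.64 and 447.6 CPM in the E. coli library and 49.8, 4.06 and 407.9 CPM in the untreated library. The part of other cells in the macrophage values was not tested.

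**Figure D4:**
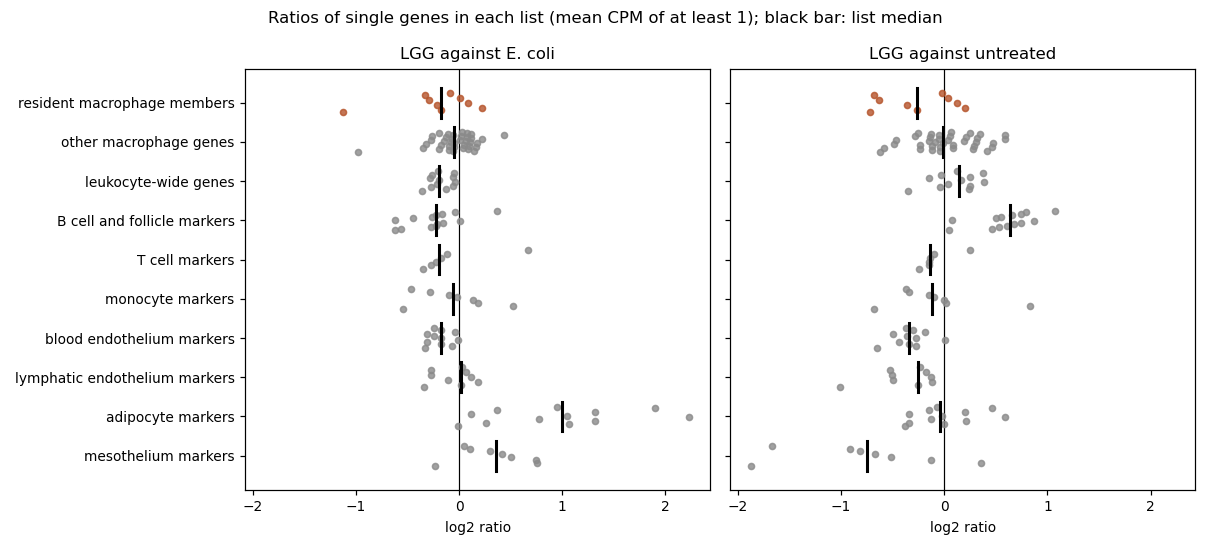
Log2 ratios of single genes (points, mean CPM of at least 1) by list in LGG against E. coli (left) and LGG against untreated (right); black bars are list medians. The macrophage genes (orange-brown) had medians of -0.17 and -0.26, the leukocyte-wide genes of -0.20 and 0.14, and the B cell and follicle genes of -0.22 and 0.64.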

How the data were processed

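Per the labels' protocols, frozen colon tissue was extracted with TRIzol and column clean-up including DNase, and sequenced from TruSeq RNA v2 libraries. The submitters' processing notes name TopHat2, HOMER and build mm9; versions, roles and use of strand: not given in the sources used here. Per gene, the authors deposited expected counts in steps of 0.5 of unstated origin. Here they were rounded to whole numbers, values ending in 0.5 to the even neighbour.

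TMM factors (edgeR 4.0.16, R 4.3.3) were 0.979 for LGG, 0.989 for E. coli, 0.985 for PBS and 1.05 for untreated. Log2 ratios carried a prior of 0.5 counts and an exact conditional binomial (Clopper-Pearson) 95% counting interval, computed in Python 3.11.15 with scipy 1.17.1. A gene was past the size rule at a log2 ratio of at least 1 in size, an interval that excluded 0 and a mean CPM of at least 1. Reads amplified by PCR and not tagged with molecular identifiers cannot be taken as separate molecules; intervals and the limit of 3 counts for a count of 0 therefore cover counting error only. The rule and intervals were tried on simulated counts that held counting error only, so this does not bear on spread between mice or libraries. No test between conditions was possible with 1 library each.

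The 10 genes and the 21 other lists were chosen with earlier results of these data known. Named genes were the 10, genes of other lists past the rule or else the 2 most abundant, and the 5 nearest patterns to Siglec1 and to summed C1q; not every gene this takes is printed. The ratios within C1q and relative to C1q, the motifs and the choice of start regions were added after values were seen. Alternatives were DESeq2 1.42.0 size factors, library totals, upper-quartile factors, other filters, priors and rounding, and a 1.5-fold rule.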

Additional observations from a re-analysis of the deposited data

How the results depend on the processing

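Siglec1 in LGG against E. coli passed the 2-fold rule under each scaling, prior and rounding tried, and 0 genes passed at a mean CPM of at least 5, since Siglec1 is then not measured. With a 1.5-fold rule the count was 2 in LGG against PBS and 3 in LGG against untreated. Of 240 single ratios under other scalings or a prior of 5 counts, all stayed within their counting interval and 7 changed sign, none of them past the rule. The medians of the macrophage genes ranged from -0.21 to -0.12 in LGG against PBS, -0.19 to -0.13 in LGG against E. coli, -0.36 to -0.14 in LGG against untreated, -0.28 to -0.077 in E. coli against untreated and -0.12 to -0.023 in PBS against untreated. In E. coli against PBS the median of -0.0028 was 0.00092 with DESeq2 size factors and 0.003 with library totals. Library totals moved the median of all genes to -0.1014 in LGG against untreated. Rounding values that end in 0.5 up, an alternative added after seeing the data, took 1 of 60 intervals past 0: C1qb in E. coli against untreated, from -0.0002 to 0.2961 as reported and from 0.0017 to 0.2978 when rounded up. Depth limits Siglec1 and Timd4 most. No paired analysis was possible because each condition has 1 library.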
